A study of Mus musculus with 24 samples.

Results

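Potassium channel genes were examined in the prefrontal cortex of mice that carry the Df(16)A deletion. The members are the genes whose symbol begins with Kcn and a further letter and ends in a digit, taken from the probe sets annotated with a single gene symbol. Such a name was found for 85 of the 18820 genes measured. The rule uses the symbol only, not any measured value, and a gene with more than 1 probe set is represented by the one with the highest mean over all arrays.

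The study hybridised 24 mouse RNA samples to Affymetrix arrays. The labels do not say that each sample is a separate animal, and a mouse below means 1 such sample. The 12 mutant mice (MUT) are heterozygous for the deletion, written Df16(A)+/- in the labels, and the 12 wild-type littermates (WT) carry both copies. All were males aged 8 weeks on a C57BL6/J background. The deletion is an engineered loss of 1 copy of a segment of chromosome 16 that corresponds to the human 22q11.2 microdeletion, and it is present in every cell, so neither a cell type nor a single deleted gene can be singled out by the design. Values are log2 expression levels from RMA (robust multi-array average), without detection calls, so no gene could be called absent and levels of different genes are not set against each other.

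Potassium channels let potassium ions leave or enter the cell along their gradient, which sets the resting potential and shapes the action potential. Voltage-gated alpha subunits (Kcna, Kcnb, Kcnc, Kcnd, Kcnh, Kcnq) open on depolarisation, and silent alpha subunits (Kcnf, Kcng, Kcns, Kcnv) form no channel of their own but join Kcnb subunits and alter their gating. Inward rectifiers (Kcnj) and tandem-pore channels (Kcnk) carry current near rest, Kcnma, Kcnn and Kcnt channels respond to intracellular calcium or sodium, and auxiliary subunits (Kcnab, Kcne, Kcnip, Kcnmb) bind the pore-forming proteins.

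The genotype labels were checked first. All 16 measured genes checked from the deleted interval were lower in MUT, with a median log2 difference of -0.68, and in 15 of them no MUT value overlapped a WT value. Correlations between arrays lay between 0.994 and 0.997. The MUT arrays of replicates 5, 9 and 10 lay apart from the others on the first principal component, and values without them are given where they change a statement. Neuronal markers had a median difference of -0.0073, astrocyte markers one of 0.0072 and interneuron markers one of 0.04, and no marker of the 12 lists passed the test. The 4 measured blood markers had a median of -0.56, with Ngp at -1.20, S100a8 at -0.67, S100a9 at -0.46 and Alas2 at -0.05. The 4 striatal markers had a median of 0.11. The part of both lists in the values below was not tested. Of the potassium channel genes, 4 lie on chromosome 16, namely Kcne1, Kcne2, Kcnj6 and Kcnj15, and none of these is a gene of the deleted interval.

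The comparison of MUT with WT asked whether the deletion alters potassium channel transcripts. None of the 85 genes passed the test in either direction. Among all 18820 genes, 0.531% were called higher and 0.228% lower in MUT (limma, Benjamini-Hochberg adjusted p under 0.05). The smallest adjusted p among the channel genes was 0.12, for Kcnj8. At an unadjusted p under 0.05, 8 channel genes (9.41%) were higher and 7 (8.24%) were lower, against 6.11% and 5.82% of all genes. In no channel gene did the MUT and WT mice separate completely; over all genes, 0.112% did so with MUT higher and 0.106% with MUT lower.

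The differences were small and about as precise as elsewhere on the array. The median log2 difference over the 85 genes was -0.0042, against -0.0014 over all genes, and 40 values lay above 0 and 45 below. The extremes were -0.18 for Kcnj8 and 0.19 for Kcne1, a dimly measured gene. The 95% interval of the difference lay inside -0.2 to 0.2 for 64 of the 85 genes (75.3%), against 75.5% of all genes. Across all 85 the lowest bound was -0.34, for Kcnj14, and the highest 0.34, for Kcne1. By comparison, Ufd1, a deleted gene present in 1 copy, differed by -0.88 ± 0.02 (SE), and the dimly measured deleted genes Cdc45 and Gnb1l by -0.30 and -0.27. In bulk tissue a smaller number of cells of a type and a lower level per cell cannot be told apart.

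**Figure D1:**
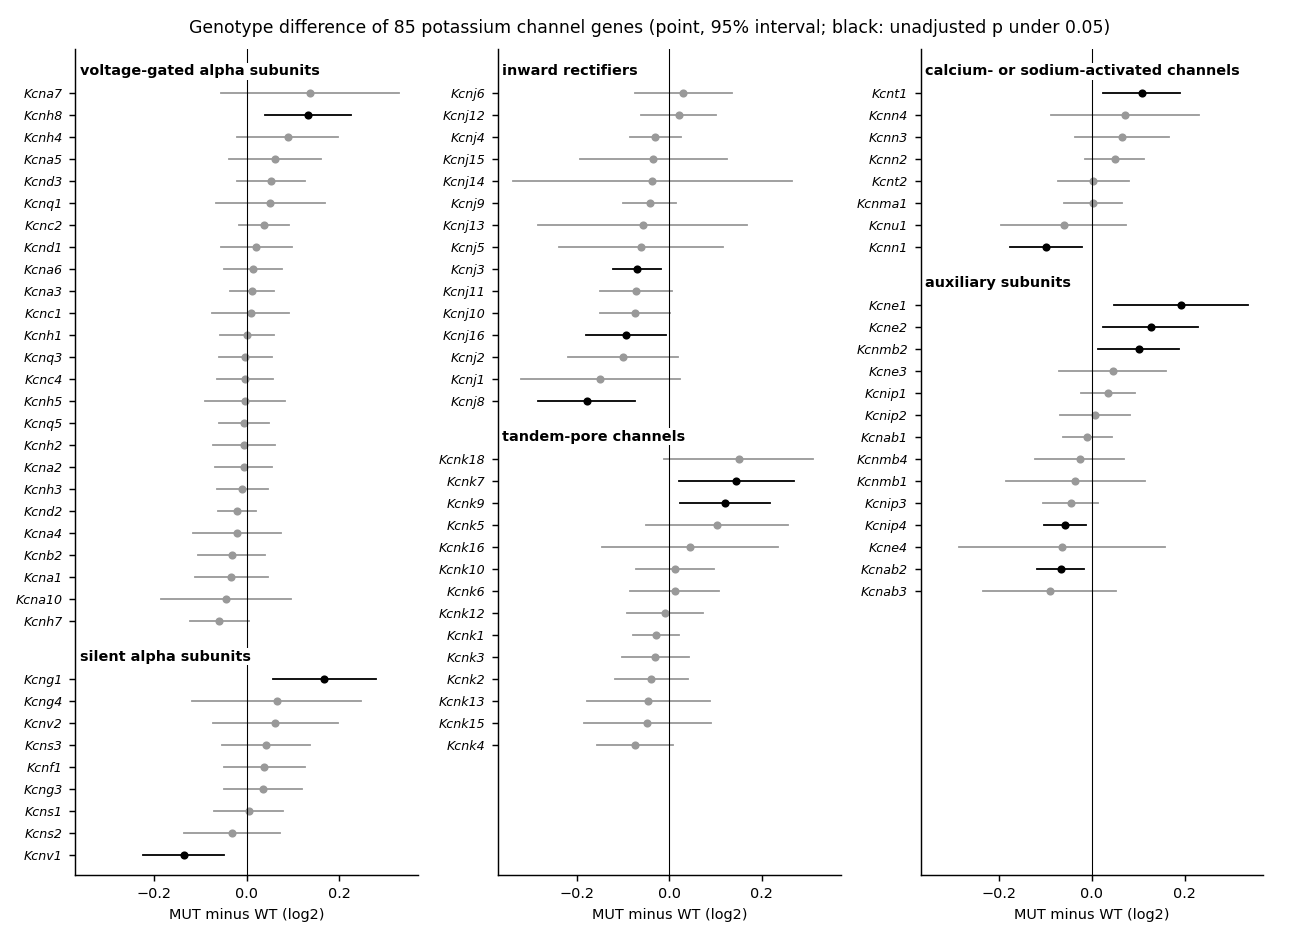
MUT minus WT difference (log2, horizontal axis) of each of the 85 potassium channel genes, with its 95% interval, grouped by subunit class and ordered by size. Most intervals cross 0, the 15 in black have an unadjusted p under 0.05, and 13 of the 15 inward rectifiers lie left of 0.

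The upstream sequences of the genes nearest to a call are shown so that the promoters behind the values can be read. They are, in each direction, the 2 channel genes of smallest p with a single entry in the RefSeq promoter table (GRCm38.p6), where 65 of the 85 genes had an entry. Kcnv1 and Kcng1, described further on, are not among them. Each is the 250 bases before the annotated start, 5′ to 3′ on the gene's strand. Capitals mark letters searched for on either strand. The GC box was searched as GGGCGG. The TATA box was searched as TATAAA. The half-site of the cAMP response element was searched as TGACG.
Kcnj8, lower in MUT, chr6:142571615-142571864, minus strand: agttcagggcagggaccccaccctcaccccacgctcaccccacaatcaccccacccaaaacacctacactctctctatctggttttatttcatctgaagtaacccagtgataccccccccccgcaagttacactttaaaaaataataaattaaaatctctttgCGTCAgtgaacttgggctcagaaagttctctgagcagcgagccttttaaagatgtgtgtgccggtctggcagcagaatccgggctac
Kcnj3, lower in MUT, chr2:55435720-55435969, plus strand: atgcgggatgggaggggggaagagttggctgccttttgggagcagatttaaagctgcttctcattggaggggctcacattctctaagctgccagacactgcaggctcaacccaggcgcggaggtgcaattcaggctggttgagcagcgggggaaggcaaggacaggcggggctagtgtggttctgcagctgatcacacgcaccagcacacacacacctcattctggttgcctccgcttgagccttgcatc
Kcnh8, higher in MUT, chr17:52602459-52602708, plus strand: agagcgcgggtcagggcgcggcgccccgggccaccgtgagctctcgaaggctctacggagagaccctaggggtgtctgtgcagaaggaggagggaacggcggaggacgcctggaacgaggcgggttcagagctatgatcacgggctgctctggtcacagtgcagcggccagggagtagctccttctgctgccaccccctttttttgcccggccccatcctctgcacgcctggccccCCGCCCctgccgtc
Kcnk7, higher in MUT, chr19:5704221-5704470, plus strand: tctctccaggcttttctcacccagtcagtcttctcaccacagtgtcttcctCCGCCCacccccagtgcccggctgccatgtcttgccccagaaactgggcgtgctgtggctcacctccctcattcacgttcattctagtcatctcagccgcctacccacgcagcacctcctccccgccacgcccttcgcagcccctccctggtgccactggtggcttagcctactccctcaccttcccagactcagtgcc

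The 4 windows shared no marked motif across both directions. Kcnj8 held 1 half-site, Kcnj3 none of the 3 motifs, and Kcnh8 and Kcnk7 held 1 GC box each. Each of these matches lay on the strand opposite to the one printed. Over the 90 windows of the 65 channel genes, a GC box was present in 44.4%, against 32.7% of all 32851 windows of the table. A TATA box was present in 3.3% against 12.4%, and the half-site in 15.6% against 17.8%. These are matches of letters in a window and say nothing of a bound factor.

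Among the inward rectifiers, 13 of 15 genes had values below 0 (86.7%, against 51% of all genes), with a median of -0.06, and none passed the test. At an unadjusted p under 0.05, 3 were lower and none higher. In the other classes, values above 0 were found in 7 of 9 silent alpha subunits and 6 of 8 calcium- or sodium-activated channels. They were found in 7 of 14 tandem-pore channels, 6 of 14 auxiliary subunits and 12 of 25 voltage-gated alpha subunits. The mean of the 15 genes per mouse came to 7.77 ± 0.05 (SD, n = 12) in MUT and 7.84 ± 0.04 in WT, and the groups overlapped, with MUT mice between 7.73 and 7.85 and WT mice between 7.77 and 7.93. The 15 include the dim genes Kcnj1, Kcnj5 and Kcnj15, with means below the 25th percentile of gene means at 5.45. Their differences were -0.15 ± 0.08 (SE), -0.06 ± 0.09 and -0.03 ± 0.08. The count below 0 was 11 of 15 in arrays 1 to 12 and 12 of 15 in arrays 13 to 24, which share no array. It was 13 after quantile normalization and after median centring, and 12 without the 3 MUT arrays lowest on the first principal component. Over all 18820 genes, 10649 lay below 0 in arrays 1 to 12 and 8722 in arrays 13 to 24. That count was 9631 after quantile normalization, 10231 after median centring and 9594 without those 3 arrays.

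Kcnj8 encodes the pore of the ATP-sensitive channel of vascular smooth muscle and pericytes. Its level ranged from 6.86 to 7.28 in MUT, with a median of 7.17, against 7.13 to 7.48 in WT, with a median of 7.31. All 12 MUT mice lay below the WT median and 5 lay below the lowest WT mouse. The difference was -0.18 ± 0.05 (SE), a fold of 0.884 (95% interval 0.822 to 0.95; limma, adjusted p = 0.12). Arrays 1 to 12 alone gave -0.13, and arrays 13 to 24 alone gave -0.25. Abcc9, which encodes the sulfonylurea receptor that partners it, had 0.04 ± 0.03, and the 6 markers of pericytes and vascular smooth muscle had a median of 0.03, with a mean level per mouse of 8.68 to 9.13 in MUT and 8.67 to 9.11 in WT. Their part in the Kcnj8 value was not tested.

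Kcnj3 encodes a subunit of the G-protein-gated channels opened by inhibitory receptors. It ranged from 10.69 to 10.86 in MUT (median 10.79) and from 10.78 to 10.91 in WT (median 10.86). Of the MUT mice, 11 lay below the WT median, and the difference was -0.07 ± 0.03 (limma, adjusted p = 0.262). Its partner subunits Kcnj9 and Kcnj6 had -0.04 ± 0.03 and 0.03 ± 0.05.

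Kcnj10 and Kcnj16 form the channel through which astrocytes take up potassium. Kcnj16 ranged from 8.67 to 8.94 in MUT (median 8.87) and from 8.73 to 9.07 in WT (median 8.94), and all 12 MUT mice lay below the WT median. Its difference was -0.09 ± 0.04 (limma, adjusted p = 0.379), and that of Kcnj10 was -0.07 ± 0.04 (limma, adjusted p = 0.427). Without the 3 MUT arrays lowest on the first principal component the unadjusted p of Kcnj16 was 0.105 (limma).

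The other members of the class spanned neuronal, cardiac and epithelial channels. Kcnj11, the pore of the neuronal ATP-sensitive channel, had -0.07 ± 0.04, and Abcc8, its receptor subunit, 0.02 ± 0.04. Of the strong rectifiers, Kcnj2 had -0.10 ± 0.06, Kcnj4 -0.03 ± 0.03 and Kcnj12 0.02 ± 0.04. Kcnj14 and Kcnj13 varied most among mice of one genotype of all 85 genes, with pooled SDs of 0.38 and 0.28, so their intervals were wide.

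**Figure D2:**
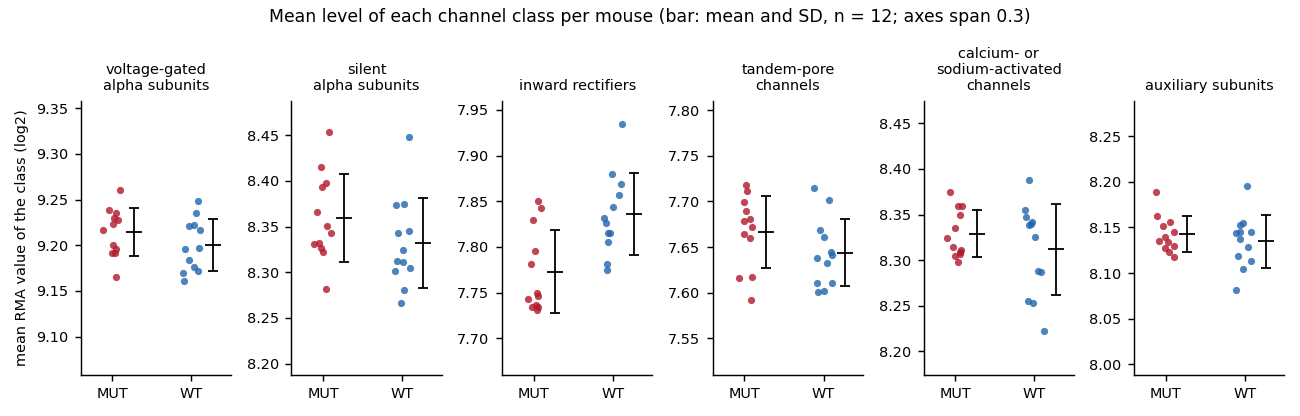
Mean level of the genes of each channel class (log2, vertical axis) in each mouse, MUT left of WT, with the mean and SD of 12 mice beside the points; each axis spans 0.3. The inward rectifiers are the class whose MUT and WT means lie farthest apart, 7.77 and 7.84, and the points of both genotypes overlap in each panel.

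Among the silent alpha subunits, Kcng1 had the smallest p of all channel genes with higher values in MUT, and Kcnv1 the smallest after Kcnj8 of those with lower values. Of the 9 genes none passed. Kcng1 ranged from 9.74 to 10.23 in MUT (median 9.96) and from 9.70 to 10.08 in WT (median 9.78). Of the MUT mice, 11 lay above the WT median and 3 above the highest WT mouse. The difference was 0.17 ± 0.05 (SE), a fold of 1.12 (95% interval 1.04 to 1.21; limma, adjusted p = 0.187). Kcnv1 lay the other way, at 11.21 to 11.51 in MUT (median 11.34) against 11.30 to 11.68 in WT (median 11.50), with 11 MUT mice below the WT median. Its difference was -0.14 ± 0.04, a fold of 0.91 (95% interval 0.857 to 0.967; limma, adjusted p = 0.171). The other 7 members, in the Kcnf, Kcng, Kcns and Kcnv classes, lay between -0.03 and 0.06.

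Both genes were also set against the running array number in the labels, over which the genotypes are interleaved. Kcng1 averaged 9.89 ± 0.09 (SD, n = 7) in MUT and 9.75 ± 0.04 (SD, n = 5) in WT over arrays 1 to 12. Over arrays 13 to 24 it averaged 10.12 ± 0.12 (SD, n = 5) in MUT and 9.87 ± 0.13 (SD, n = 7) in WT. Kcnv1 averaged 11.38 in MUT and 11.58 in WT over arrays 1 to 12, and 11.32 in MUT and 11.43 in WT over arrays 13 to 24. The difference between the 2 sets of arrays had an adjusted p of 0.0587 for Kcng1 and of 0.257 for Kcnv1 (limma with genotype in the fit), and none of the 85 genes passed that test, where 0.255% of all genes were higher and 0.138% lower in the later arrays.

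With the array number in the fit as a linear term, which was added once the values were known, both genes passed. Kcng1 was then higher by 0.19 (limma, adjusted p = 0.0212) and Kcnv1 lower, at -0.15 (limma, adjusted p = 0.0114), where 0.627% of all genes were higher and 0.303% lower. With the set of arrays as a term, a planned setting, Kcng1 passed (0.20, limma, adjusted p = 0.0185) and Kcnv1 did not (limma, adjusted p = 0.0543), against backgrounds of 0.526% higher and 0.26% lower. With the replicate number as a block Kcnv1 passed (-0.14, limma, adjusted p = 0.0467) and Kcng1 did not (limma, adjusted p = 0.0776), against 0.584% higher and 0.197% lower. The calls for both genes thus depend on the terms in the fit. Without the 3 MUT arrays lowest on the first principal component, Kcng1 had 0.12 (limma, unadjusted p = 0.0319) and Kcnv1 -0.12 (limma, unadjusted p = 0.0155).

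**Figure D3:**
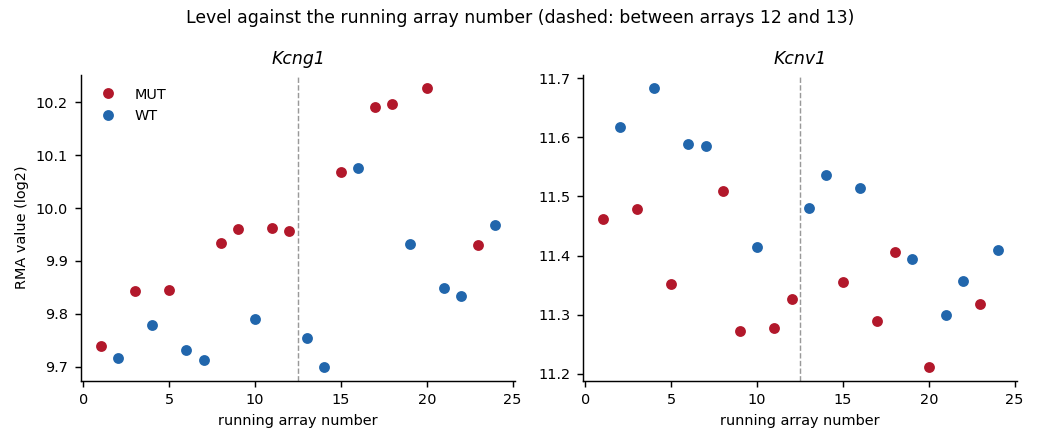
Level of Kcng1 and Kcnv1 (log2, vertical axis) in each mouse against the running array number, with MUT in red and WT in blue and a dashed line between arrays 12 and 13. On average Kcng1 is higher in the later arrays of both genotypes and Kcnv1 lower, and within each set the MUT mean of Kcng1 lies above the WT mean, by 0.15 and 0.25.

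The voltage-gated alpha subunits, which include the main repolarising channels of cortical neurons, had the smallest median size of difference of the 6 classes. Of 25 genes none passed, the median size of the difference was 0.02, against 0.04 over all genes, and 23 of the 25 intervals lay inside -0.2 to 0.2. These genes also varied less among mice of one genotype, with a median SD of 0.08 against 0.12 over all genes. The part of that lower spread in the smaller differences was not tested. Kcnd2, the somatodendritic A-type channel, had 11.52 ± 0.04 (SD, n = 12) in MUT and 11.54 ± 0.03 in WT, and its interval ran from -0.06 to 0.02. Kcnq3, a subunit of the M-current, had an interval of -0.06 to 0.05, Kcnq5 one of -0.06 to 0.05 and Kcnh1 one of -0.06 to 0.06. Kcnc1, of the fast channels of parvalbumin interneurons, had one of -0.07 to 0.09. Kcna1 and Kcna2, subunits of axonal low-threshold channels, differed by -0.03 ± 0.04 and -0.0068 ± 0.030. The median of the class was -0.0026, and 0.0097 after quantile normalization, so it has no stable direction.

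Kcnh8, an ether-a-go-go-like channel, was the exception within that class by unadjusted p. It ranged from 5.34 to 5.72 in MUT (median 5.49) and from 5.20 to 5.60 in WT (median 5.35), a difference of 0.13 ± 0.04 (limma, adjusted p = 0.212). A further probe set of the gene had 0.08 ± 0.06 (unadjusted p = 0.196). For Kcnd3, the other gene with 2 such probe sets, they gave 0.05 and 0.06.

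Among the 8 genes grouped with the calcium- or sodium-activated channels none passed. They include Kcnu1, related to Kcnma1 by sequence but known from sperm and not gated by calcium, which had -0.06 ± 0.07. Kcnt1, a sodium-activated channel, ranged from 10.11 to 10.38 in MUT (median 10.21) and from 9.90 to 10.31 in WT (median 10.14). In 11 MUT mice it lay above the WT median, and the difference was 0.11 ± 0.04 (limma, adjusted p = 0.285). The related Kcnt2 had 0.0027 ± 0.037. Kcnn1, a small-conductance channel that follows calcium entry, had -0.10 ± 0.04 (limma, adjusted p = 0.292), whereas the related Kcnn2 and Kcnn3 had 0.05 ± 0.03 and 0.07 ± 0.05. Kcnma1, the large-conductance channel, had 11.16 ± 0.06 (SD, n = 12) in MUT and 11.15 ± 0.08 in WT, with an interval of -0.06 to 0.06.

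Of 14 tandem-pore channels none passed, and 7 lay on each side of 0. Kcnk9, an acid-sensitive leak channel, ranged from 10.76 to 11.02 in MUT (median 10.95) and from 10.50 to 11.03 in WT (median 10.83). In 11 MUT mice it lay above the WT median, and the difference was 0.12 ± 0.05 (limma, adjusted p = 0.306). Kcnk7, for which no current of its own is known, had 0.14 ± 0.06 (limma, adjusted p = 0.335), with means of 5.62 in MUT and 5.48 in WT. The leak channels Kcnk1 and Kcnk2 had -0.03 ± 0.02 and -0.04 ± 0.04.

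Of 14 auxiliary subunits none passed. Kcnab2, which binds Kcna channels and guides them to the axon, ranged from 11.64 to 11.82 in MUT (median 11.73) and from 11.70 to 11.89 in WT (median 11.80), a difference of -0.07 ± 0.02 (limma, adjusted p = 0.258). Kcnip4, a calcium-binding partner of Kcnd channels, had -0.06 ± 0.02, and 9 of 12 MUT mice lay below the lowest WT mouse (limma, adjusted p = 0.296). In the other direction, Kcne1 had 0.19 ± 0.07, Kcne2 0.13 ± 0.05 and Kcnmb2, which inactivates the large-conductance channel, 0.10 ± 0.04. Kcne1 averaged 5.25 in MUT and 5.06 in WT, and Kcne2 4.85 and 4.72. Both are dim, below the 25th percentile of gene means at 5.45. The value of Kcne1 was 0.06 in arrays 1 to 12 and 0.32 in arrays 13 to 24, and other genes gave values as far apart, such as Kcna7 with -0.05 and 0.35. The difference between the sets was not tested. Kcnmb4 had -0.03 ± 0.05 at its own probe set, and a pair of further probe sets shared with the antisense gene Kcnmb4os1, which are not counted here, had 0.14 ± 0.06 and 0.0037 ± 0.027.

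**Figure D4:**
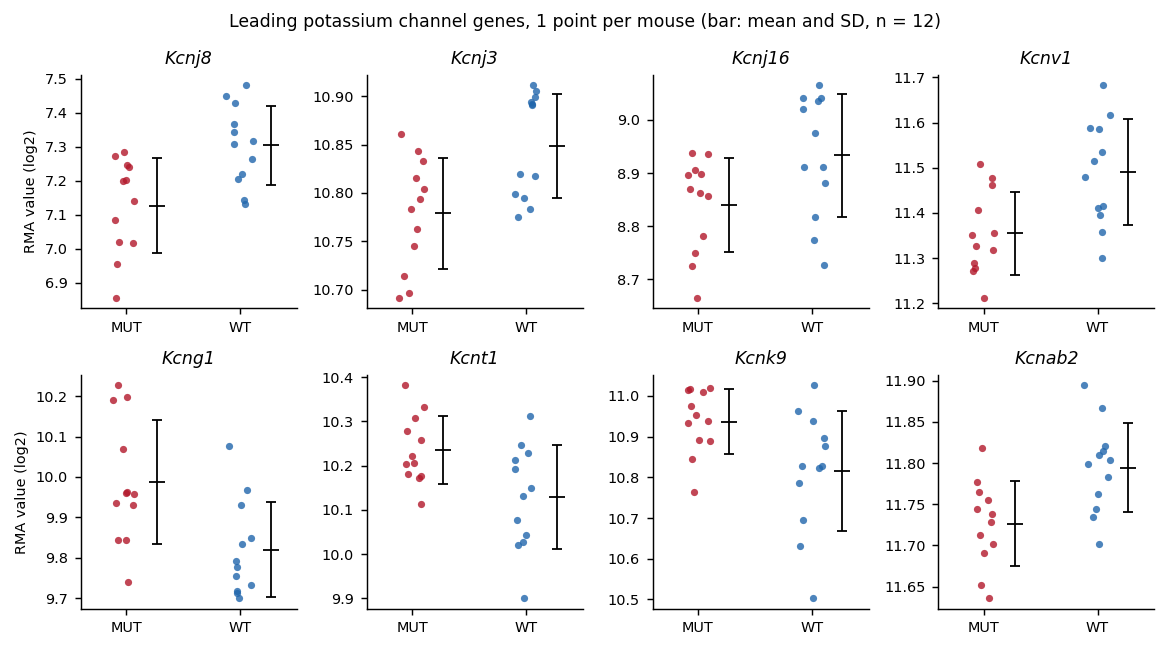
Level of 8 channel genes with an unadjusted p under 0.05 (log2, vertical axis), 1 point per mouse, MUT left of WT, with the mean and SD of 12 mice; these 8 were picked from the 15 after their values were seen. The genotypes overlap in every panel, and in Kcnj8 5 MUT mice lie below the lowest WT mouse at 7.13.

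Genes that act with the channels were counted in the same fit. Of 31 measured partners outside the Kcn names (cyclic-nucleotide-gated Hcn channels, receptor subunits, anchoring and trafficking proteins) none passed, and the median was 0.00018. Lrrc55, an auxiliary protein of the large-conductance channel, had -0.17 ± 0.06 (limma, adjusted p = 0.192). Of 9 measured genes of the sodium pump and the potassium-chloride cotransporters none passed, and 8 lay above 0, with a median of 0.03; over all genes 9220 of 18820 lay above 0. Slc12a5, the neuronal exporter of potassium and chloride, had 11.86 in MUT and 11.86 in WT.

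Covariation over mice was examined in 9 pairs of partner genes, after removal of each genotype's mean. Kcna1 and Kcna2, which assemble in the same axonal channels, varied together (Pearson r = 0.58 and Spearman rho = 0.58 over 24 mice; permutation tests within genotype, two-sided, p = 0.0042 and 0.00398, adjusted over the 9 pairs 0.0189 and 0.0285). Kcnc1 varied with Pvalb, the marker of the interneurons that use it (r = 0.59, p = 0.00235, adjusted 0.0189; rho = 0.54, p = 0.00634, adjusted 0.0285). Without the 2 mice farthest from the median of the first gene, r was 0.62 and 0.52. Within MUT, r was 0.86 for Kcna1 with Kcna2 and 0.84 for Kcnc1 with Pvalb, and within WT it was 0.34 and 0.24. The difference between the genotypes was not tested. In arrays 1 to 12, r was 0.65 for Kcna1 with Kcna2 and 0.76 for Kcnc1 with Pvalb, and in arrays 13 to 24 it was 0.45 and 0.40. Some mice deviated alike in both pairs. In MUT replicate 6 the deviations of Kcna1, Kcna2, Kcnc1 and Pvalb were 0.09, 0.05, 0.13 and 0.27. In MUT replicate 5 they were -0.15, -0.07, -0.20 and -0.31. Correlations across the 2 pairs were not tested, so the covariation is not shown to be particular to partners.

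The other 7 pairs did not pass. Kcnj10 and Kcnj16 had r = 0.31 and rho = 0.37 (permutation tests, p = 0.137 and 0.0756, adjusted 0.27 and 0.227), with r at -0.08 within MUT and 0.71 within WT, a difference that was not tested. Kcnj3 and Kcnj9 had r = -0.31, Kcnj3 and Kcnj6 0.09, Kcnj8 and Abcc9 0.17, Kcna2 and Kcnab2 0.31, Kcnd2 and Kcnip4 -0.0053 and Kcnma1 and Kcnmb4 -0.18, with adjusted p for r between 0.27 and 0.982. Over all 3570 pairs of the 85 genes the median r was 0.008 and the middle of the distribution ran from -0.18 to 0.20.

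**Figure D5:**
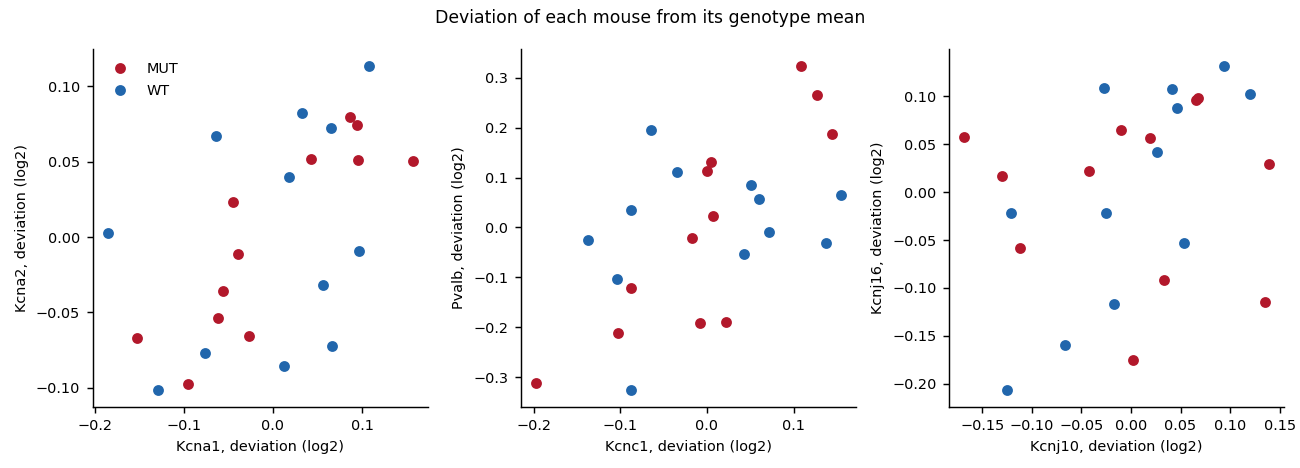
Deviation of each mouse from its genotype mean (log2, both axes) for Kcna1 with Kcna2, Kcnc1 with Pvalb and Kcnj10 with Kcnj16, MUT in red and WT in blue. The points run along a rising line in the first and second panels, with r of 0.58 and 0.59, and are scattered in the third, with r of 0.31.

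Arrays 1 to 12 and 13 to 24 share no array, although the labels do not say whether they share animals. The log2 differences of the 85 genes had the same sign in both for 50 genes, with r = 0.28 across the channel genes and also 0.28 across all genes, which are not independent replicates. The 3 MUT arrays lowest on the first principal component were also left out. The unadjusted p (limma) of Kcnn1, Kcne1, Kcne2, Kcnk7, Kcnmb2 and Kcnj16 was then 0.111, 0.0841, 0.057, 0.113, 0.128 and 0.105, all now above 0.05.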

How the data were processed

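Labelled cDNA was made from miRNeasy-extracted total RNA, per the labels' protocols. The table deposited by the authors gives log2 expression for 35556 probe sets in each array. RMA is the tool named in the submitters' processing notes, while the genome build is not given in the sources used here. Of these probe sets, 21218 carried 1 symbol in the platform annotation, which gave 18820 genes, 18790 of them matched by Entrez identifier to RefSeq (GRCm38.p6). RMA compresses differences of dim probe sets. The number of arrays, 12 per genotype, limits the precision.

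MUT and WT were compared with limma 3.58.1 in R 4.3.3 (lmFit, eBayes, genotype as the only term), with Benjamini-Hochberg adjustment over all 18820 genes and a threshold of 0.05. The test was checked on simulated data. Errors of differences are moderated standard errors. Correlations used 100000 permutations within genotype. The labels number the arrays as replicates without saying that each is a separate animal, and a mouse here means 1 such sample, so p-values measure the spread between these samples.

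Genes were named by a rule: those past the threshold, the 8 of smallest p in each direction, the smallest p of each letter class and a core list, of which some genes are not reported here. Values of other members serve to describe their class, and genes of related lists were named after their values were seen. The members, lists and tests were chosen with earlier results of these data known. Alternatives covered normalization, variance model, array weights, dim genes, probe set choice, a replicate block, array order and left-out arrays.

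MUT and WT share replicate numbers 1 to 12, but no label says that a number marks a litter. Deviations of same-numbered mice correlated between -0.08 and 0.31, over 0.1 in 6 of 12 pairs. The median was 0.10, against -0.01 for mice of other numbers. The numbers were not taken as pairs in the main fit, and the replicate block gives the values with them.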

Additional observations from a re-analysis of the deposited data

How the results depend on the processing

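The count of potassium channel genes called was 0 higher and 0 lower in the fit with genotype alone, and leaving out each array in turn kept it at 0 and 0. Normalization, centring, variance trend, array weights, dim-gene filters, probe set choice, either set of 12 arrays and omission of the 3 MUT arrays also gave 0. With the replicate block 1 gene was lower (Kcnv1, -0.14, limma, adjusted p = 0.0467) and 11 were lower at an unadjusted p under 0.05; 2 of 12 MUT mice were most like the WT mouse of their own number. With the set of arrays as a term 1 was higher (Kcng1), and with the array number as a linear term, chosen after the data were seen, 1 was higher and 1 lower; the cause was not tested. The 8 genes higher at an unadjusted p under 0.05 became 5 of 71 above the 25th percentile, which leaves out the dim Kcne1, Kcne2 and Kcnh8. They became 3 of 55 above the median, which also leaves out Kcnk7 and Kcnmb2. The 8 higher became 5 over arrays 1 to 12 and 5 without the MUT arrays of replicates 5, 9 and 10. The 7 lower became 4 over arrays 13 to 24. These last settings all have fewer samples. Leaving out single arrays gave 8 to 10 higher and 6 to 10 lower at that level, 58 to 64 intervals inside -0.2 to 0.2 and a median of -0.012 to 0.00054. Shares of all genes at that level were counted only for the fit with genotype alone, with 6.11% higher and 5.82% lower. The counts under the alternatives therefore have no background of their own and are not read as more or fewer than elsewhere. Of 1390 values of the 37 named genes under the alternatives, 57 had the other sign, none of them for a gene with an unadjusted p under 0.05 in the main comparison.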

Other observations

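After the values were seen, 3 further pairs were correlated over the 24 mice, each channel gene with a marker of the cells known to use it. Kcnj13 with Ttr, a choroid plexus marker, had r = 0.26 and rho = -0.15 (permutation tests, adjusted over the 3 pairs p = 0.259 and 0.417), and r = -0.30 without the 2 mice farthest out, so that value rests on those mice. Kcnj10 with Aqp4, an astrocyte marker, had r = 0.36 and rho = 0.35 (adjusted p = 0.259 and 0.339, permutation tests), and r = 0.39 without the 2 mice farthest out. Kcnj8 with Rgs5, a pericyte marker, had r = 0.16 and rho = 0.21 (adjusted p = 0.446 and 0.417, permutation tests), and r = 0.39 without the 2 mice farthest out. Within arrays 1 to 12 and 13 to 24, r was -0.10 and 0.47 for Kcnj13 with Ttr, 0.50 and 0.21 for Kcnj10 with Aqp4, and 0.59 and -0.14 for Kcnj8 with Rgs5.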
